A study of Mus musculus with 6 samples.

Results

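The 10 genes described here take part in the breakdown of branched-chain amino acids (BCAAs: leucine, isoleucine and valine), and they were followed in brown adipose tissue (BAT) of wild-type (WT) and miR-22 knockout (KO) mice. They were taken as a named list, *Bcat1*, *Bcat2*, *Bckdha*, *Bckdhb*, *Dbt*, *Bckdk*, *Ppm1k*, *Ivd*, *Mccc1* and *Hibch*, and every array probe whose RefSeq accession belonged to 1 of them was used. This gave 19 probes for 10 genes, of 33767 probes for 23462 genes on the array. RNA of whole BAT from 3 WT and 3 KO male mice, 8 weeks old, was hybridized with 1 dye to Agilent mouse gene expression arrays. The labels give each array a sample name of its own and say nothing of pooling, so each array is written of as 1 mouse, and p-values measure the spread between these samples. No mouse had a treatment in the labels. The KO line, from the Jackson Laboratory, carries the deletion in the whole body, so it is not limited to adipocytes or to BAT. The comparison asks how loss of miR-22 was accompanied by changes in the BAT transcriptome.

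BCAAs enter the cell through amino acid transporters and lose their amino group to a transaminase, cytosolic BCAT1 or mitochondrial BCAT2. The branched-chain α-keto acid dehydrogenase complex in the mitochondrial matrix then commits the keto acids to oxidation. It is built from an E1 enzyme with an α and a β subunit (BCKDHA and BCKDHB), the transacylase core E2 (DBT) and the shared E3 subunit DLD. The kinase BCKDK phosphorylates the E1 α subunit and turns the complex off, and the phosphatase PPM1K removes the phosphate and turns it on. Downstream, the routes separate, with IVD and MCCC1 in leucine breakdown and HIBCH in valine breakdown. BAT is known to take up and oxidize BCAAs for heat production, with import into mitochondria through the carrier SLC25A44.

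The miRNA removed in the KO mice yields the following mature strands. They are shown because their absence defines the KO group, with the seed (bases 2 to 8) in capitals, as given by RefSeq on GRCm38.p6.
mmu-miR-22-5p: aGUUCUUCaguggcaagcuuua
mmu-miR-22-3p: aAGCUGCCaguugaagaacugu
The first lies at chr11:75463734-75463755 and the second at chr11:75463772-75463793, both on the plus strand, and their seeds differ. No array probe was matched to the mature miRNA, so the deletion could not be checked directly.

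All values below are scaled log2 signals, that is, the background-subtracted signal of a probe relative to the 75th percentile of the signals on the same array, on a log2 scale. A value of 0 is the level of that percentile, and levels are not compared between probes. Groups were compared with limma. A gene is counted as lower or higher in KO mice when its unadjusted p was under 0.05. This is the threshold in the methods of the study, which used SAM for the arrays. Each adjusted p is the Benjamini-Hochberg value over all genes tested. The software of the scanner marked 4.87 to 17.1% of the spots of an array as not uniform or as outliers, most on the third WT and the first KO array (17.1 and 15.1%). Marked spots were left out of the main test, and results with them kept are named as such. Of the non-control spots, 55.8 to 66.5% were well above background, fewest on the first KO array, and none was saturated. Markers of brown adipocytes were present as labelled, with all 11 genes of the list above background on all 6 arrays, and *Ucp1*, the uncoupling protein of brown fat, lay between 5.0 and 5.85. In bulk tissue, fewer cells of a type and less RNA per cell cannot be told apart. The host transcript *Mir22hg* was measured at a scaled log2 signal of 1.2, 1.69 and 1.22 in the WT mice and of 2.02, 2.11 and 2.23 in the KO mice. It was higher in every KO mouse than in any WT mouse, with a difference of 0.75 between the means (standard error 0.18, adjusted p = 0.108).

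Of the transaminases, *Bcat2* was lower in KO mice and *Bcat1* did not pass the test, and the difference between these genes was not tested. *Bcat2* (chr7:45568967-45589710, GRCm38.p6), the mitochondrial form, had the largest fall of the 8 list genes that could be tested. On its brighter probe (A_55_P1960167) the WT mice were at 2.44, 2.36 and 2.52 and the KO mice at 1.77, 1.05 and 1.97. The WT mice lay close together, the KO mice were spread, with the second lowest, and the groups did not overlap. The mean went from 2.44 ± 0.08 (SD, n = 3) to 1.60 ± 0.48 (SD, n = 3), a fold of 0.559 (log2 difference -0.84, standard error 0.25). It passed the unadjusted threshold but not the adjusted one (adjusted p = 0.155). The second, dimmer probe was at -0.63, -1.03 and -0.50 in WT mice and at -0.85, -1.27 and -0.98 in KO mice. Here the groups overlapped, and the log2 difference of -0.31 (standard error 0.20) did not pass either threshold. The annotation assigns these probes to different RefSeq transcripts of the gene.

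*Bcat1* (chr6:144993835-145076157), the cytosolic form, was measured by 3 probes, none of which passed the test. The brightest was at -1.06, -1.28 and -1.35 in WT mice and at -0.99, -0.65 and -1.68 in KO mice. The KO mice lay on both sides of the WT mice, and the log2 difference was 0.12 (standard error 0.27, adjusted p = 0.812). Without the second KO mouse it was -0.10. The other probes, both not well above background on the first KO array, gave 0.37 (standard error 0.33) and -0.14 (standard error 0.19). The log2 ratio of *Bcat1* to *Bcat2* within an array, relative to the WT mean, was 0.91, 1.97 and 0.02 in the KO mice, against an SD of 0.19 between WT mice. It was thus higher in 2 KO mice and within the WT range in the third.

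**Figure D1:**
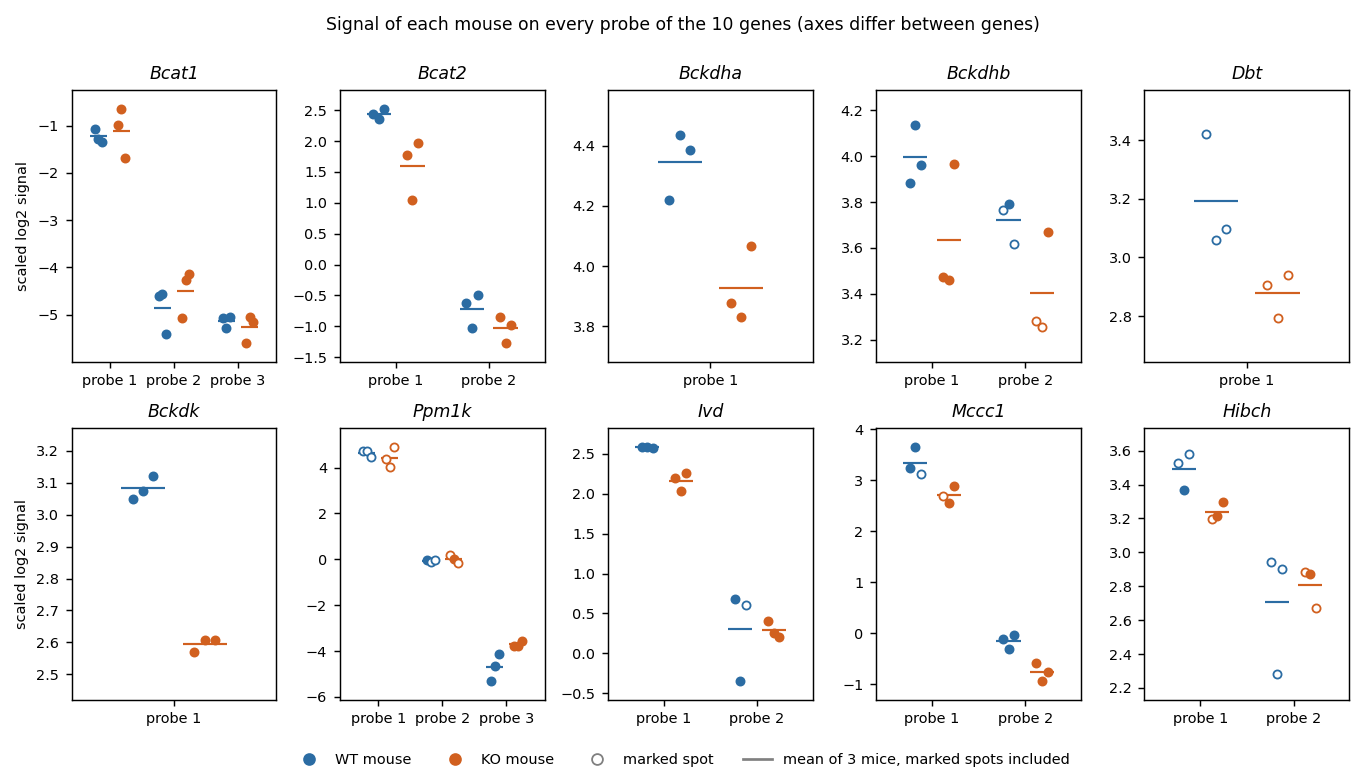
Scaled log2 signal (y axis) of each of the 3 WT and 3 KO mice on the 19 probes of the 10 genes, with probes of a gene ordered from brightest to dimmest and an axis of its own for each gene. Points are mice, hollow points are marked spots, and bars are means of 3 mice. For *Bcat2* probe 1, *Bckdha*, *Bckdk*, *Ivd* probe 1 and both *Mccc1* probes all KO points lie below all WT points, as they do for the marked probes *Dbt* and *Hibch* probe 1, and for *Ppm1k* probe 3 above them.

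Among the subunits of the dehydrogenase complex, *Bckdha* was lower in KO mice, and *Bckdhb* and *Dbt* lay below 0 without passing the test. *Bckdha* (chr7:25629852-25658782), the E1 α subunit, was at 4.22, 4.44 and 4.38 in WT mice and at 3.88, 3.83 and 4.07 in KO mice. No KO value reached the lowest WT value. The fold was 0.747 (log2 difference -0.42, standard error 0.14, adjusted p = 0.190). This call was lost when the second WT mouse, the third WT mouse, the first KO mouse or the second KO mouse was left out (-0.38, -0.40, -0.40 and -0.37), and after quantile normalization the difference was -0.16 (adjusted p = 0.515).

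*Bckdhb* (chr9:83925111-84124240), the E1 β subunit, was at 3.88, 4.14 and 3.96 in WT mice and at 3.47, 3.46 and 3.97 in KO mice. The first and second KO mice were lower than all WT mice, and the third was within their range. The log2 difference of -0.36 (standard error 0.18, adjusted p = 0.334) passed the unadjusted threshold only when the third KO mouse was left out, at -0.53. The second probe, with marked spots on 4 arrays, likewise had only the third KO mouse within the WT range, at 3.76, 3.79 and 3.62 against 3.28, 3.25 and 3.67.

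The single probe of *Dbt* (chr3:116513070-116549981), the E2 core, was marked on all 6 arrays and could be tested only with marked spots kept. Its values were 3.42, 3.06 and 3.10 in WT mice and 2.91, 2.79 and 2.94 in KO mice. Every KO mouse was below every WT mouse, and the means differed by -0.31 (standard error 0.15, adjusted p = 0.280), which did not pass. Relative to the WT mean, the log2 ratio to *Bckdha* within an array differed by 0.06 for *Bckdhb* (SD between WT mice 0.07, between KO mice 0.17) and by 0.11 for *Dbt* (SD 0.31 and 0.08), and for both ratios the groups overlapped.

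The transcript of the enzyme that turns the complex off was also lower in KO mice. *Bckdk* (chr7:127904073-127909664), the kinase, was at 3.05, 3.08 and 3.12 in WT mice and at 2.57, 2.61 and 2.61 in KO mice. Both groups were tight, and the gap between them was far wider than the spread within either. The mean went from 3.08 ± 0.04 (SD, n = 3) to 2.60 ± 0.02 (SD, n = 3), a fold of 0.713 (log2 difference -0.49, standard error 0.12, adjusted p = 0.119). This was the smallest adjusted p of the list, and with the methods' t-test its adjusted p was 0.0627, the lowest of the alternatives, in which it ranged up to 0.545. Relative to *Bckdha* within an array, *Bckdk* differed by -0.07 (SD between WT mice 0.09, between KO mice 0.12), with overlapping groups. These ratios carry no test.

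For *Ppm1k* (chr6:57506502-57535552), the phosphatase, the probes disagreed. The brightest, marked on all 6 arrays, was at 4.72, 4.73 and 4.45 in WT mice and at 4.38, 4.01 and 4.90 in KO mice. The third KO mouse was the highest of all and the second the lowest, and with marked spots kept the log2 difference was -0.21 (standard error 0.24, adjusted p = 0.638). The second probe, marked on 4 arrays, was at -0.04, -0.12 and -0.03 against 0.18, 0.02 and -0.15, a difference of 0.08 (standard error 0.14). Only the dimmest probe (A_66_P133398) could be tested without marked spots, and it stands for the gene in the counts below. Its values were -5.31, -4.66 and -4.14 in WT mice and -3.77, -3.76 and -3.58 in KO mice. Every KO mouse lay above every WT mouse, with a fold of 2.0 (log2 difference 1.0, standard error 0.29, adjusted p = 0.151). This probe was above background on all 6 arrays but far dimmer than the others, and under normexp with quantile normalization its log2 difference was 0.48 (standard error 0.15).

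The log2 ratio of *Ppm1k* to *Bckdk* within an array was read on each probe relative to its WT mean. A scaling factor shared by all probes of an array cancels in this ratio, but a shift that differs between bright and dim probes does not. With marked spots kept, quantile normalization moved the *Bckdk* difference from -0.49 to -0.30 and left that of the second *Ppm1k* probe at 0.08. With the brightest *Ppm1k* probe the ratio was 0.12, 0.10 and -0.22 in WT mice and 0.26, -0.15 and 0.74 in KO mice, and the groups overlapped. With the second probe it was 0.05, -0.05 and 0.00 in WT mice and 0.76, 0.56 and 0.39 in KO mice, and all KO mice were higher. With the dimmest probe the mean rose by 1.48 (SD between KO mice 0.10, between WT mice 0.55). These ratios carry no test.

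Of the later enzymes, the leucine-branch genes were lower in KO mice. *Ivd* (chr2:118861959-118882909) encodes isovaleryl-CoA dehydrogenase. Its brighter probe was at 2.59, 2.59 and 2.57 in WT mice and at 2.20, 2.03 and 2.26 in KO mice. The WT mice were nearly identical and all KO mice lay below them, with a fold of 0.748 (log2 difference -0.42, standard error 0.13, adjusted p = 0.169). The dimmer probe was at 0.68, -0.35 and 0.60 against 0.41, 0.26 and 0.20, where the second WT mouse was the lowest of all, and the log2 difference was 0.12 without and -0.02 with the marked spot of the third WT mouse. In the mean of both probes the difference was -0.20 (standard error 0.17, adjusted p = 0.557), so the call rests on the brighter probe.

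*Mccc1* (chr3:35956292-36000694) encodes the α subunit of methylcrotonoyl-CoA carboxylase, and its probes moved together. The brighter probe was at 3.25, 3.66 and 3.13 in WT mice and at 2.70, 2.55 and 2.89 in KO mice, with marked spots on the third WT and first KO array. Without these spots, on 2 mice per group, the fold was 0.604 (log2 difference -0.73, standard error 0.24, adjusted p = 0.221), and with them the log2 difference was -0.63 (standard error 0.18, adjusted p = 0.143). The dimmer probe, without marked spots, was at -0.12, -0.31 and -0.02 against -0.58, -0.93 and -0.75. The groups did not overlap on either probe, and on the dimmer one the log2 difference was -0.60 (standard error 0.16, adjusted p = 0.138 over all probes).

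*Hibch* (chr1:52845038-52920986), 3-hydroxyisobutyryl-CoA hydrolase of the valine branch, had marked spots on both probes and was tested only with these kept. The brighter probe was at 3.53, 3.37 and 3.58 in WT mice and at 3.20, 3.21 and 3.30 in KO mice. All KO mice were lower, and the means differed by -0.26 (standard error 0.13, adjusted p = 0.296), which did not pass. The other probe was at 2.94, 2.28 and 2.90 against 2.88, 2.87 and 2.67, with the second WT mouse far below the rest and a log2 difference of 0.10 (standard error 0.21).

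Counted together, 8 of the 10 genes could be tested. By the unadjusted limma threshold, 5 were lower in KO mice (*Bcat2*, *Bckdha*, *Bckdk*, *Ivd* and *Mccc1*), against 8.82% of all 14711 genes tested, and 1 was higher (*Ppm1k*, on its dimmest probe), against 10.03%. The median log2 difference of the 8 was -0.42, beside -0.03 over all genes, and 6 were below 0, against 52.9% of all genes. None passed the threshold after adjustment, which 0.184% of all genes did. The smallest adjusted p of each of the 5 lower genes over the alternatives lay between 0.0627 (*Bckdk*) and 0.156 (*Bckdha*). With marked spots kept all 10 could be tested, and 9 were below 0 (55.9% of all genes), with a median of -0.39 (-0.06 over all genes). In this setting 5 were lower, against 11.1% of all genes. None was then higher, against 9.47%, and none passed after adjustment, against 0.472%. Probe by probe, 6 of the 13 testable probes were lower (7.61% of all probes) and 1 was higher (10.4%), and probes of a gene are not replicates. Of the 7 genes with 6 unmarked values, all KO mice were below all WT mice for 4 (14.7% of such genes) and above for 1 (14.2%).

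**Figure D2:**
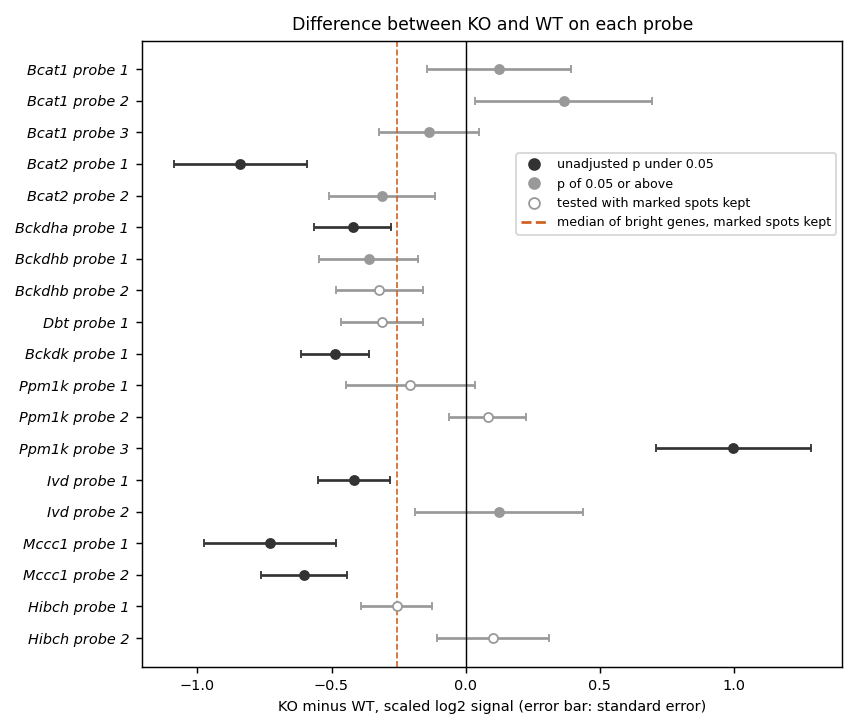
KO minus WT difference in scaled log2 signal (x axis, bars are standard errors) for the 19 probes, ordered by role. Dark points passed an unadjusted p under 0.05, hollow points were tested with marked spots kept, and the dashed line is the median of bright genes with marked spots kept, at -0.26. The 6 dark points on the left lie between -0.84 and -0.42, and the dark point on the right, *Ppm1k* probe 3, at 1.0.

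Bright genes as a class lay below 0 in this scaling, and most of the list is bright. Of the 2270 tested genes with a mean scaled log2 signal above 2, 88.2% were below 0, with a median of -0.25, and 13.0% were lower. The 6 tested list genes other than *Bcat1* and *Ppm1k* belong to this class. The 12441 tested genes at 2 or below had a median of 0.04. Of these dimmer genes 8.06% were lower and 11.8% higher, against 0.573% higher in the bright class. *Bcat1*, *Ppm1k* on its dimmest probe, and *Slc7a8* and *Slc43a2*, described below, belong to the dimmer class. Quantile normalization, which forces the same distribution on all arrays, brought the median of the bright class to -0.04, with 5.46% lower. In the dimmer class 8.87% were then higher. The list was then at -0.73 for *Bcat2*, -0.54 for *Mccc1*, -0.30 for *Bckdk* and -0.26 for *Ivd*, all still past the unadjusted threshold. In the fit over all probes the same *Ivd* probe did not pass (limma, unadjusted p = 0.057). *Bckdha* (-0.16) and *Bckdhb* (-0.12) did not pass. With marked spots kept as well, *Mccc1* was at -0.42, *Dbt* at -0.12, *Hibch* at -0.03 and *Ppm1k* at 0.07. The median of all genes moved by less than 0.1 between these scalings. With marked spots kept and no quantile normalization, 87.9% of the bright class were below 0, with a median of -0.26, and 18.6% were lower.

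The position of the arrays on the slide was not balanced, since the first and second WT arrays shared a row and the third WT array lay in the other row with all KO arrays. Against the third WT mouse alone, within that row, the KO mean was at -0.92 for *Bcat2*, -0.46 for *Bckdha*, -0.53 for *Bckdk*, -0.41 for *Ivd* and 0.43 for the dimmest *Ppm1k* probe. For the *Mccc1* probes it was -0.41 and -0.73, the first with marked spots included. With the row as a block, *Bckdk* stayed past the unadjusted threshold (adjusted p = 0.545). *Bcat2* lay just inside it (adjusted p = 0.573), and the same probe lay just outside it in the fit over all probes. *Mccc1* could not be fitted on its brighter probe, and its dimmer probe passed at -0.73 (standard error 0.24, adjusted p = 0.559 over all probes). *Bckdha*, *Ivd* and *Ppm1k* did not pass. Over all genes 2.41% were lower in this fit.

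**Figure D3:**
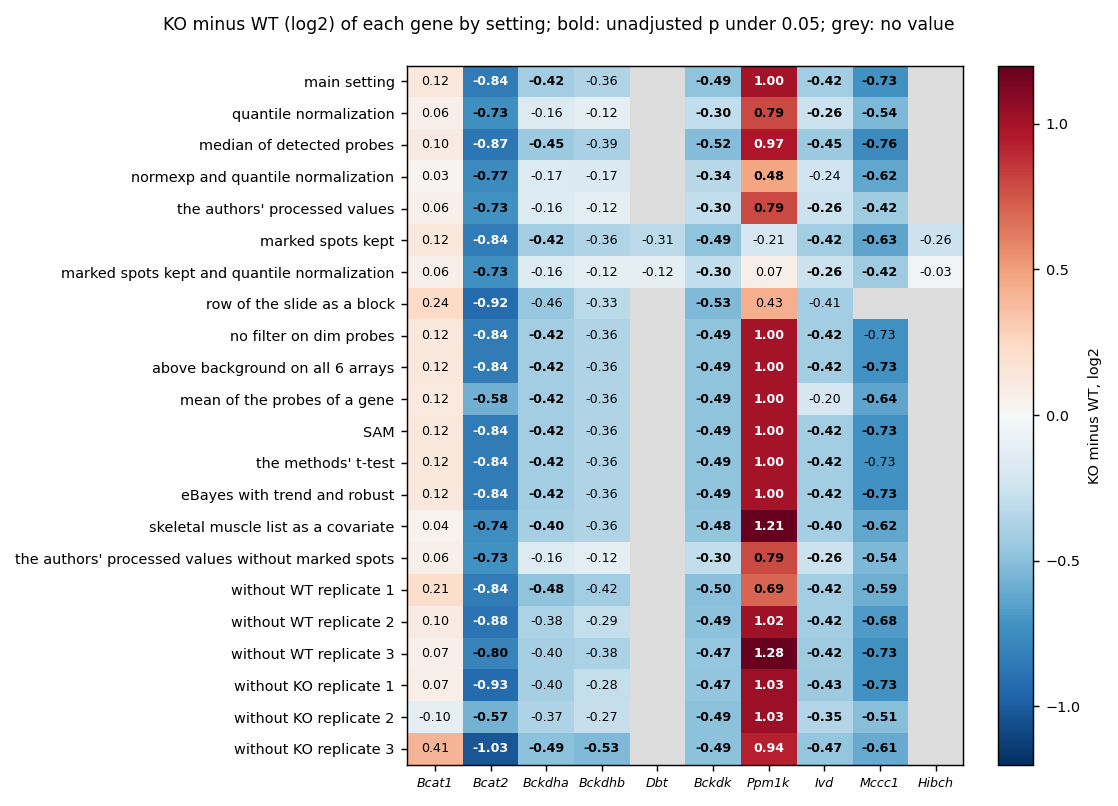
KO minus WT log2 difference of each gene (columns) under each processing setting (rows), colored from blue (lower in KO) to red (higher), with bold type for an unadjusted p under 0.05 and gray where no value could be had. *Bcat2* and *Bckdk* are bold in all rows, *Bckdha* fades to -0.16 under quantile normalization, and *Ppm1k* changes from 1.0 to -0.21 when marked spots are kept and its brightest probe stands for it.

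Markers of other cell types varied as well. The mean signal of 20 skeletal muscle genes was 2.39, 1.54 and -4.24 in WT mice and 0.11, 3.39 and 1.46 in KO mice, from 12 genes above background on all 6 arrays and none below it on all. With the muscle list as a covariate the 5 lower genes lay between -0.74 and -0.40, all past the unadjusted threshold. The brown adipocyte list (11 of 11 genes above background on all arrays) ranged from 2.40 to 2.75 in WT mice and from 2.07 to 2.63 in KO mice, a mean difference of -0.21, and the adipocyte list (9 of 9) from 4.21 to 4.47 and from 3.90 to 4.37, a difference of -0.22. The nerve list (5 of 5) ranged from 1.94 to 2.43 in WT mice and from 1.72 to 1.86 in KO mice, and the macrophage list (9 of 9) from 0.69 to 0.99 and from 0.97 to 1.38. The white adipocyte list (5 of 7 above background on all arrays and 2 on none) was higher in every KO mouse, by 0.30, and the lymphocyte (1 of 5), endothelium (6 of 6) and erythroid (3 of 3) lists differed by 0.33, 0.07 and 0.07 with overlapping groups. The part of the cell types other than muscle in the list's difference was not tested.

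A further 26 genes cover the pathway from uptake to succinyl-CoA and acetyl-CoA, with the transcription factor *Klf15* counted among them. Of these, 17 could be tested, and 2 were lower and 2 higher in KO mice, with 14 below 0 and a median log2 difference of -0.20. Over all genes 8.82% were lower, 10.03% higher and 52.9% below 0, so the counts of lower and higher genes were near the background. The lower ones both belong to the last steps from propionate to succinyl-CoA. *Mmab*, which makes the cobalamin cofactor of the mutase, was at 0.70, 1.34 and 0.86 in WT mice and at 0.25, 0.07 and 0.11 in KO mice on its brighter probe, with the spot of the third WT mouse marked. Its log2 difference was -0.87 (standard error 0.23, adjusted p = 0.142), with the same -0.87 on its second probe (standard error 0.16, adjusted p = 0.0829 over all probes). *Mmut*, the mutase itself, was at 3.65, 3.70 and 3.56 against 3.11, 3.11 and 3.30, which gave -0.46 (standard error 0.13, adjusted p = 0.147). In both genes all KO mice were below all WT mice. After quantile normalization *Mmab* was at -0.84 and *Mmut* at -0.23, the latter no longer past the unadjusted threshold.

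The higher genes were *Slc7a8* and *Slc43a2*, 2 of the plasma membrane transporters on the list. *Slc7a8* is a light chain of the exchanger for large neutral amino acids. Its brighter probe was at -2.65, -3.05 and -2.45 in WT mice and at -0.78, -0.98 and -0.92 in KO mice. The other probe was above background on none of the arrays and was not tested. On the brighter probe the groups lay far apart, at a fold of 3.54 (log2 difference 1.82, standard error 0.18). With an adjusted p of 0.0375 from limma, *Slc7a8* was the only gene of the pathway past the adjusted threshold. Its log2 difference was between 1.5 and 1.96 over all alternatives, and its adjusted p from 0.00498, with a trend and robust eBayes, to 0.230, with the row as a block; it was 0.0508 after quantile normalization and 0.0585 to 0.154 when 1 mouse was left out. *Slc43a2*, a facilitative transporter of the same amino acids, was at -1.56, -1.17 and -1.02 against -0.08, -0.84 and 0.02 on its brighter probe (log2 difference 0.95, standard error 0.27, adjusted p = 0.146), but its second probe gave 0.20 (standard error 0.35) with overlapping groups. The other tested transporters of the plasma membrane did not pass and had overlapping groups, with log2 differences of -0.40 (standard error 0.42) for *Slc43a1*, of the same family, and -0.28 (standard error 0.28) for *Slc3a2*, the heavy chain that pairs with *Slc7a8*. *Slc7a5*, another light chain, was above background on 1 array and was not tested.

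The mitochondrial carrier *Slc25a44* did not pass on either probe. Its brighter one, tested with marked spots kept, was at 2.02, 2.43 and 2.16 in WT mice and at 1.83, 1.87 and 2.47 in KO mice, which gave -0.15 (standard error 0.22), and its dimmer one gave 0.19 (standard error 0.16). *Dld*, the E3 subunit, was at -0.28 (standard error 0.17, adjusted p = 0.381) with marked spots kept. *Klf15*, a transcription factor known to drive BCAA breakdown genes, had marked spots on 4 arrays and values of 2.13, 2.25 and 2.06 in WT mice and of 1.41, 1.36 and 1.69 in KO mice. All KO mice were lower, by -0.66 with marked spots kept (standard error 0.14, adjusted p = 0.0954) and by -0.55 after quantile normalization (adjusted p = 0.0868).

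With marked spots kept, 25 of the 26 genes could be tested, 22 were below 0 with a median log2 difference of -0.28, and 8 were lower and 2 higher. Over all genes in this setting 11.1% were lower, 9.47% higher and 55.9% below 0, with a median of -0.06. Of all genes with a mean scaled log2 signal above 2, 18.6% were lower and 87.9% below 0, with a median of -0.26. Besides *Mmab*, *Mmut* and *Klf15*, the lower pathway genes were *Pcca* (-0.65), *Mcee* (-0.50), *Acad8* (-0.49), *Acat1* (-0.44) and *Hibadh* (-0.38). They act, in that order, in propionyl-CoA carboxylation, methylmalonyl-CoA epimerization, and valine, isoleucine and valine breakdown. This *Pcca* probe had marked spots on 3 arrays, and the second, without marked spots, gave -0.26 (standard error 0.17) with overlapping groups. The same *Hibadh* probe did not pass in the fit over all probes (limma, unadjusted p = 0.053), while the second did, at -0.39. When quantile normalization was added, 16 of the 25 genes were below 0 with a median of -0.03. The 4 lower ones were *Mmab* (-0.79), *Klf15* (-0.55), *Pcca* (-0.49) and *Acad8* (-0.31). Over all genes 10.48% were then lower and 54.3% below 0, and the median of all genes was also -0.03.

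**Figure D4:**
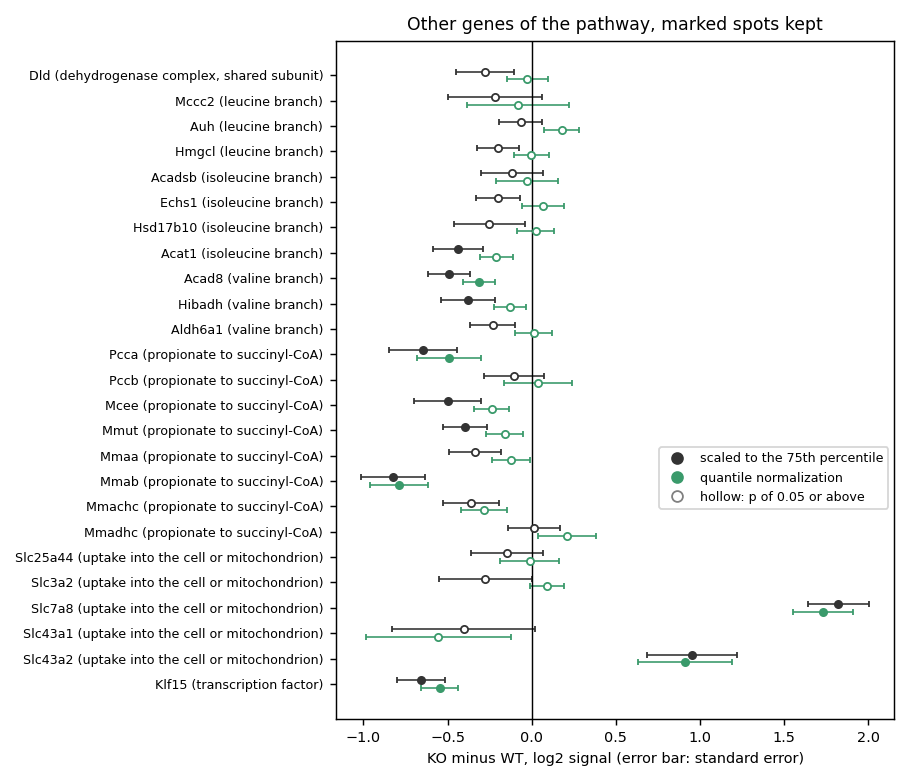
KO minus WT log2 difference (x axis, bars are standard errors) of the other 25 pathway genes that could be tested with marked spots kept, by role. The transcription factor *Klf15* is counted among them. Black points use the scaling to the 75th percentile and green points quantile normalization, and filled points passed an unadjusted p under 0.05. Most black points lie left of 0 and shift right under quantile normalization, while *Slc7a8* (1.82 and 1.73) and *Slc43a2* (0.95 and 0.91) lie right of 0 with both.

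Promoter sequences of 300 bases, 250 before and 50 after a start site, were at hand from RefSeq on GRCm38.p6 for 9 of the 10 genes, in 12 windows. The start site of a window is not always the outer end of the locus printed above. For *Bckdk* it is, for *Ivd* and *Mccc1* it lies inside the locus, and some genes have windows at different sites. Those of the 3 genes that were lower and whose window held a CCAAT box are shown, with every CCAAT box in capitals (CCAAT, or ATTGG where the box lies on the other strand), because this motif was in more of the list's windows than the others searched. The windows are at chr7:127903823-127904122 (plus strand), chr2:118861744-118862043 (plus strand) and chr3:36000629-36000928 (minus strand).
*Bckdk*: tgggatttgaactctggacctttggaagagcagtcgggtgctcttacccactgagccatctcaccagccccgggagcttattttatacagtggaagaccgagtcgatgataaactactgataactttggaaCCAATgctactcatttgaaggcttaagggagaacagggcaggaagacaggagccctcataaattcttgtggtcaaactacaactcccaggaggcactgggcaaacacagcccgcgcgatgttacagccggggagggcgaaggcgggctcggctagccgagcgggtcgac
*Ivd*: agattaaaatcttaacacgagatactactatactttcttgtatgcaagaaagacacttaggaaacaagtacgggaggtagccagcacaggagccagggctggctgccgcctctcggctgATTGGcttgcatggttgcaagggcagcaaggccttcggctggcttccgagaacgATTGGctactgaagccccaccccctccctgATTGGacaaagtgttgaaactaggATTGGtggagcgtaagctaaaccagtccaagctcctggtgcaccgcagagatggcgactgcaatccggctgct
*Mccc1*: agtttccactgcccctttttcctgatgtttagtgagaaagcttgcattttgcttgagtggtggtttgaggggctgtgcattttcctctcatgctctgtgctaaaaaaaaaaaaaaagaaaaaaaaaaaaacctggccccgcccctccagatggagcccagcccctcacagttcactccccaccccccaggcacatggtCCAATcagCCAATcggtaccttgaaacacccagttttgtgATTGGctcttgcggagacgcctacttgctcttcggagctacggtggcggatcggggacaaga
Counted from the start site of the window, the box of *Bckdk* begins at -119, those of *Ivd* at -131, -77, -47 and -23, and those of *Mccc1* at -52, -44 and -12. On both strands, and counting a window once, 7 of the 12 windows held CCAAT (6 of 9 genes), against 37.4% of all 32851 promoters of the same length. A GC box (GGGCGG) was in 4 of 12, against 35.7%. An E-box (CACGTG, against 7.15%) and a nuclear receptor half-site (AAGGTCA, against 4.72%) were in none. The windows of *Bcat2* and *Bckdha*, which were also lower, held none of these motifs, and at least 1 window each of *Bckdhb*, *Ppm1k* and *Bcat1*, which were not lower, held CCAAT. A match is only a run of letters in the window, and matches were not compared with binding data.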

How the data were processed

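Total RNA of BAT was hybridized to 6 Agilent arrays with 1 dye. The deposited intensity values came from Agilent Feature Extraction, version 11.5.1.1 by the headers and 10.7 by the submitters' processing notes, with background subtracted and no scaling between arrays. Log2 values for 27497 probes were also deposited by the authors, whose normalization is not given in the sources used here and which was used as an alternative.

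Signals were set relative to the array's 75th percentile over all spots that are not controls, and log2 was taken. Marked spots were not used. Testing a probe required detection above background on 3 or more arrays and 2 or more unmarked values in each group. Probes were named through their RefSeq accession (59.7% of 56605 matched), the brightest testable probe stood for a gene, and a fit of all probes was made as well. Groups were taken from the labels, and no numbers shared between groups pair the mice. The difference between KO and WT mice was fitted with lmFit and eBayes (limma 3.58.1, R 4.3.3, data.table version 1.17.8), two-sided, at the unadjusted p of 0.05 that the study's methods used and with Benjamini-Hochberg adjustment over all genes tested. The number of arrays limits the precision, which is given as standard errors. The fits were tested on simulated data.

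The members and the other gene lists were chosen with earlier results of these data known. All list genes are named, and of the other pathway genes those with an unadjusted p under 0.05, *Slc25a44*, *Dld* and *Klf15*. The further genes named with marked spots kept and the transporters that did not pass were chosen after their values were seen.

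Alternatives were quantile normalization, the median of detected probes, normexp with an offset of 50 followed by quantile normalization, the authors' processed values, marked spots kept (also with quantile normalization), the slide row as a block, no filter, detection on all 6 arrays, an average over each gene's probes after the level of each probe was removed, SAM, the methods' t-test, a trend and robust eBayes, the muscle list as a covariate, and leaving out each mouse. The study's methods name SAM for the arrays, and the t-test comes from their general statistics. The processed values without marked spots were added after the data were seen. The array files as used here hold no probe sequence or probe position.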

Additional observations from a re-analysis of the deposited data

How the results depend on the processing

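*Bcat2* and *Bckdk* kept their direction and an unadjusted p under 0.05 in all 21 alternatives of the fit per gene (with the row as a block *Bcat2* was at the threshold and did not pass in the fit per probe), *Ivd* in 18, *Mccc1* in 18 of the 20 that gave it a value, and *Bckdha* in 11. *Bckdha* lost its call under quantile normalization and the authors' processed values, with the slide row as a block, and without 4 of the mice in turn, *Ivd* under normexp, the row and the mean of its probes, and *Mccc1* without a filter and with the methods' t-test. No list gene passed the adjusted threshold in any alternative. The number of lower list genes was 3 of 8 under normexp with quantile normalization (8.56% of all genes) and 2 of 7 with the row as a block (2.41%). It was 4 to 6 when each mouse was left out, against 5.6 to 10.3% of all genes. The number of higher list genes was 0 with marked spots kept (9.47% of all genes), 0 when quantile normalization was added (8.13%), and 0 with the row as a block (6.29%). Lower probes numbered 2 of 11 (2.19% of all probes) and higher probes 0 (5.98%) with the row as a block. When each mouse was left out 3 to 6 probes were lower (5.14 to 8.59% of all probes), fewest without the second KO mouse (6.81%). *Ppm1k* changed sign to -0.21 with marked spots kept, where a brighter probe stands for it, and *Bcat1*, at -0.10 to 0.41 when each mouse was left out, was below 0 without the second KO mouse.

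Of the other pathway genes, 1 of 17 was lower under quantile normalization (10.2% of all genes) and normexp (8.56%), 1 of 18 with the authors' processed values (11.8%), 1 of 15 with these values without marked spots (11.3%), 8 of 25 with marked spots kept (11.1%), and 4 of 25 when quantile normalization was added to that (10.48%). With the row as a block 0 of 11 were lower (2.41%) and 1 was higher (6.29%). The rise of *Slc7a8* did not pass after adjustment, leaving 0 genes, under quantile normalization, the row, no filter, SAM, the methods' t-test and the muscle covariate, nor, at 0 to 0, without any of the 6 mice. Over all genes, lower and higher calls numbered 1297 and 1476, against 1494 and 1176 under quantile normalization and 1582 and 1146 with the authors' processed values. Genes past the adjusted threshold numbered 27, against 4 and 149 in these settings, 76 with marked spots kept, 233 with the filter of all 6 arrays, 283 with a trend and robust eBayes, 3 with the row as a block, 0 with SAM, 1 with the methods' t-test, and 0 to 20 without 1 mouse. With marked spots kept more genes were tested. The causes of the other changes were not tested. The 3 mice per group and the signal over background of dim probes limit these comparisons. No paired analysis was possible because the labels give the groups no shared replicate numbers.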
